A study of Mus musculus with 17 samples.

Results

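Kit- endothelial cells of the aorta-gonad-mesonephros (AGM) region that had spent 2 h on a stroma carrying the Notch ligand Jag1 were compared with Kit- cells taken directly from the embryo. The 5 arrays were chosen by their sample titles, 2 of Kit-J and 3 of fresh Kit-, out of 17 arrays in the series. All cells came from pooled AGM regions of E11.5 mouse embryos, and all were sorted as CD31+, CD45- and, by the protocol, Ter119-. Fresh Kit- cells were sorted at 0 h and were not cultured. Their arrays had been made for an earlier study, so for any difference from fresh cells the culture, the second sort and the set of arrays are confounded and cannot be told apart. For Kit-J the CD31+ cells, Kit- and Kit+ together, were laid on OP9-Jag1, a mouse bone marrow stromal line that overexpresses Jag1, and after 2 h were sorted again by Kit. The medium held serum, IL3, SCF, IL6, IGF-1, FGF, VEGF and erythropoietin. The other groups used, of 3 arrays each, serve for comparison: Kit-D, the Kit- cells recovered after 2 h on OP9-Dll4 (the same line with the ligand Dll4), fresh Kit+ cells, and Kit+J, the Kit+ cells recovered from OP9-Jag1. Kit+D, the Kit+ cells recovered from OP9-Dll4, is given for single genes only. By the study's own account 1 Kit-J sample was left out on technical grounds.

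In the AGM at this stage the lining of the dorsal aorta gives rise to blood stem cells. Aortic cells that enter this path lose vascular genes and gain the receptor Kit, so that CD31+ Kit- cells are mainly endothelium and CD31+ Kit+ cells hold the emerging blood clusters. Endothelial identity rests on receptors for the growth factor VEGF and for angiopoietins, on adherens junctions built from cadherins, and on transcription factors of the ETS and SOX families. Notch receptors, opened by Jag1 or Dll4 on a neighbouring cell, act with the DNA-binding protein RBPJ on genes such as Hey2.

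A line of the labels bears on the arrays before any result. The titles, the source names and the cell population all give both Kit-J arrays as Kit-, but the first line of their description names Ckit+. The same conflict stands on Kit-D replicate 3, and on Kit+D replicate 3 the line names Ckit-. The signal of Kit itself, on the log2 scale, was 9.081 and 8.496 on Kit-J replicates 1 and 2, against 8.288, 8.208 and 8.132 on the Kit- arrays. Both Kit-J arrays thus lay above every fresh Kit- array, and they lay below the fresh Kit+ arrays, whose mean was 9.508. The difference of Kit-J from Kit- was not called (0.58, standard error 0.29, adjusted p = 0.399). Kit-D replicate 3 measured 8.016 for Kit, below the Kit- arrays but above Kit-D replicates 1 and 2 (7.718 and 7.046). Kit+D replicate 3 measured 8.995, beside 8.983 and 8.509 on Kit+D replicates 1 and 2. By Kit alone the conflicting line cannot be settled, and every direction given for Kit-J rests on the titles. The array nearest to Kit-J replicate 2 over all probe sets was Kit+ replicate 2, and the array nearest to Kit-J replicate 1 was Kit-J replicate 2.

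The defining endothelial markers were lower on the Kit-J arrays. Both Kit-J arrays lay below all 3 Kit- arrays for each of 10 markers, beside 12.8% of all genes. Of the 10, 6 were called lower (Cdh5, Kdr, Tek, Tie1, Emcn and Eng), beside 1.89% of all genes. Pecam1, which encodes the CD31 used in the sort, remained bright at 9.084 and 8.984, against 9.979, 9.923 and 10.02 on the Kit- arrays, and was not called (adjusted p = 0.248). Ptprc, which encodes the CD45 used to exclude blood cells, overlapped between the groups, at 8.120 and 8.862 in Kit-J and at 9.195, 8.463 and 8.120 in fresh cells. On the Kit-D arrays Ptprc was lower on average (5.737). In pooled cells, fewer cells of a type and less RNA per cell cannot be told apart.

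The promoters of 5 called genes are shown: 3 receptors among the strongest falls (Kdr, Nrp1 and Tek), the single member of the Notch list that fell (Hey2) and the single member of the stress and metal response list that rose (Mt2). Each is the window of 300 bases around the start site that RefSeq gives for GRCm38.p6. Capitals mark TGGGAA, the core of the RBPJ motif, on either strand in Kdr (chr5:75978406-75978705, minus strand), Nrp1 (chr8:128358823-128359122, plus strand), Tek (chr4:94739039-94739338, plus strand) and Hey2 (chr10:30842734-30843033, minus strand), and TGCGCNC, the core of the metal response element, on either strand in Mt2 (chr8:94172368-94172667, plus strand).
Kdr: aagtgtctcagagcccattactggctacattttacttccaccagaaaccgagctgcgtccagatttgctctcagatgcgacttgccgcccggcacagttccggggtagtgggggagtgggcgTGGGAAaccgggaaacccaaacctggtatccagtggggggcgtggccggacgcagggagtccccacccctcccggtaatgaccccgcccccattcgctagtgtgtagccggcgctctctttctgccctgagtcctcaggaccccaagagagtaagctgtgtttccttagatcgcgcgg
Nrp1: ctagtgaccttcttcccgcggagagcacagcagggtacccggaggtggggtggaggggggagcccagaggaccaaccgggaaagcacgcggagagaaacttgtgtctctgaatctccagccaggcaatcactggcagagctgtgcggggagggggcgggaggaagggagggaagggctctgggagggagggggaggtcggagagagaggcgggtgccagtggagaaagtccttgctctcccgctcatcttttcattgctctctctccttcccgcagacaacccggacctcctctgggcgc
Tek: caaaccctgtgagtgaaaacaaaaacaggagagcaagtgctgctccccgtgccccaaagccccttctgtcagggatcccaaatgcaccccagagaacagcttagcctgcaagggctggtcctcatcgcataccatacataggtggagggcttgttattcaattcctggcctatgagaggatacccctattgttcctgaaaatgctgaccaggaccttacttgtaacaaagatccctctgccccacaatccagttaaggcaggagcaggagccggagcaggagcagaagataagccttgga
Hey2: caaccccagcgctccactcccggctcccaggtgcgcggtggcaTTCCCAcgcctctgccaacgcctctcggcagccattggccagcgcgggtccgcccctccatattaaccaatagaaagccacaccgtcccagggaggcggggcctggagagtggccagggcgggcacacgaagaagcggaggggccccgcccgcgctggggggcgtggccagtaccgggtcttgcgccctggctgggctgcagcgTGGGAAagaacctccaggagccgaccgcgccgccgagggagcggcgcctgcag
Mt2: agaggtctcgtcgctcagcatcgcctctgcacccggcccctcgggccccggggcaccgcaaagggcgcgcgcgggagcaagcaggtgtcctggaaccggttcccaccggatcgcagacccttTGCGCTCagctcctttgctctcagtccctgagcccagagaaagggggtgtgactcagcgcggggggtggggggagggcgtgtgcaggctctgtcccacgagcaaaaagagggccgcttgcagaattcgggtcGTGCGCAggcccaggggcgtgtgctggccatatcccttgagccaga
The Kdr window holds 1 match to TGGGAA, at -128 from the start site, and the Hey2 window holds 2, at -207 and -3. The windows of Nrp1 and Tek hold 0, and so carry no capitals. The Mt2 window holds 2 matches to TGCGCNC, at -128 and 4. Not marked are a TGGGAA match in the Mt2 window, at -151, and a TGCGCNC match in the Hey2 window, at -26. Of all 32851 RefSeq promoter windows, 25.6% hold TGGGAA and 15.4% hold TGCGCNC. Among the 19114 windows of genes tested the shares were 24.1% and 21%. TGGGAA stood in 26.4% of the 382 windows of genes lower in Kit-J and in 15.9% of the 44 windows of genes higher. TGCGCNC stood in 27.2% of the former and 34.1% of the latter, above the share of the genes tested in both directions. Motifs of ETS, SOX, KLF, GATA and AP-1 factors were searched too. The ETS motif CCGGAAG stood in 5.24% of the windows of lower and 11.4% of those of higher genes, beside 12.1% of genes tested. The AP-1 motif TGAGTCA stood in 3.4% and 11.4%, beside 4.61%. Differences between these shares were not tested. All are matches of letters in a window and do not show binding.

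Of 19937 genes, 426 (2.14%) passed limma's test, that is an adjusted p below 0.05, 50 higher in Kit-J (0.251%) and 376 lower (1.89%). The shares of 1.89% lower and 0.251% higher are the background for every count of called list members below. The median difference of all genes was 0.085 on the log2 scale. Both Kit-J arrays lay below all 3 Kit- arrays in 2551 genes (12.8%) and above them in 3930 (19.7%), far more genes than passed the test. Among 27 genes that the study itself shows for this comparison 21 were lower (median -1.85). Many of them were picked on these arrays, so the list is no independent evidence. Kit, Itga2b, Runx1 and Gata2 are in the list because the study measured them by qRT-PCR, and none of them was called here. Leaving out Kit-J replicate 1 reduced the 426 calls to 105 (17 higher, 88 lower), and leaving out Kit-J replicate 2 raised them to 942 (301 higher, 641 lower). Without any 1 of the Kit- arrays the count was 247 to 272. In all 5 of these fits 84 of the 426 genes were called, and all 84 were lower in Kit-J.

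**Figure D1:**
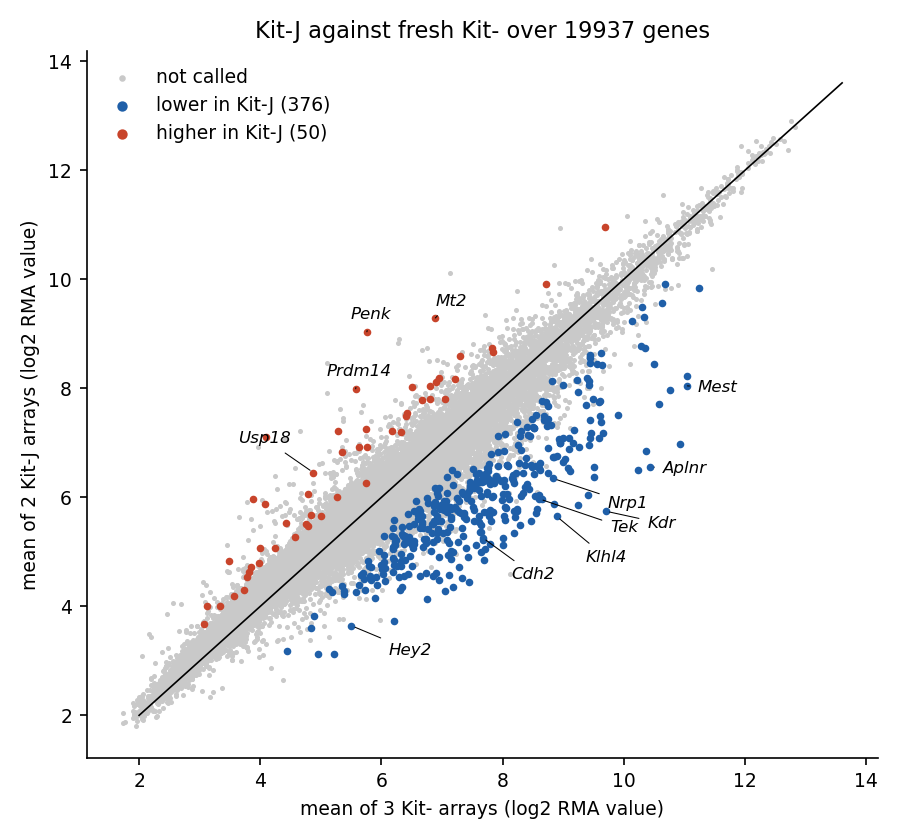
Each point is 1 of 19937 genes, placed by its mean log2 RMA value on the 3 fresh Kit- arrays (horizontal axis) and on the 2 Kit-J arrays (vertical axis); the line marks equal means. The 376 genes called lower (blue) include Kdr, Aplnr and Mest, while the 50 called higher (red) include Penk, Prdm14 and Mt2.

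The receptors for VEGF fell as a family. All 5 members of the list of VEGF receptors and co-receptors were lower (median -2.18), beside 1.89% of all genes. Kdr, the main signalling receptor for VEGF on endothelium, measured 5.110 and 6.381 on the Kit-J arrays and 9.618, 9.829 and 9.639 on the Kit- arrays. Its mean was 5.75 ± 0.90 (SD, n = 2) against 9.70 ± 0.12 (SD, n = 3). The Kit-J arrays lay far below the Kit- arrays and differed from each other by more than the Kit- arrays did. It fell by 3.95 on the log2 scale (standard error 0.38, adjusted p = 7.34e-05), which is a 15.5-fold lower signal and the largest fall of any called gene.

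Nrp1, a co-receptor that binds VEGF and semaphorins, measured 6.080 and 6.610 on the Kit-J arrays against 8.868, 8.913 and 8.719 on the Kit- arrays (log2 fold change -2.49, standard error 0.21, adjusted p = 3.72e-05). Its fall was 5.61-fold, and the groups were separated by more than 2 on the log2 scale. Flt1, a receptor that also acts as a trap for VEGF, measured 5.896 and 6.598 against 8.700, 8.181 and 8.300 (-2.15, adjusted p = 0.00862). Nrp2, the related co-receptor, measured 7.031 and 6.156 against 8.317, 8.297 and 8.467 (-1.77, adjusted p = 0.0103). Flt4, the receptor of VEGF-C, was added after its values were seen, to complete the family. It measured 4.892 and 5.093 against 7.538, 7.107 and 6.879 (-2.18, adjusted p = 0.0146). Kdr and Nrp1 were called whichever array was left out. Flt1 was not called without Kit-J replicate 1 (adjusted p = 0.155), nor Nrp2 without Kit-J replicate 2 (adjusted p = 0.0713). Flt4 lost its call on removal of Kit-J replicate 1, where 3 of the 5 members were called, and of Kit- replicate 1, where 4 were.

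In the angiopoietin-Tie system, which keeps vessels stable, 3 of 5 members fell (median -1.53). Tek, the angiopoietin receptor, measured 5.750 and 6.194 on Kit-J against 8.388, 8.946 and 8.466 on Kit- (-2.63, standard error 0.21, adjusted p = 3.72e-05). Ptprb, the phosphatase that restrains Tek, measured 6.226 and 6.661 against 8.683, 9.040 and 8.519 (-2.30, adjusted p = 0.000435). Tie1, the partner of Tek, measured 6.719 and 6.412 against 8.013, 8.085 and 8.176 (-1.53, adjusted p = 0.0112). All 3 lay below every Kit- array. Tie1 lost its call when either Kit-J array was removed (adjusted p = 0.0678 and 0.0549). Angpt1, a ligand of Tek, overlapped between the groups (3.378 and 5.734 against 5.404, 6.711 and 5.989).

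**Figure D2:**
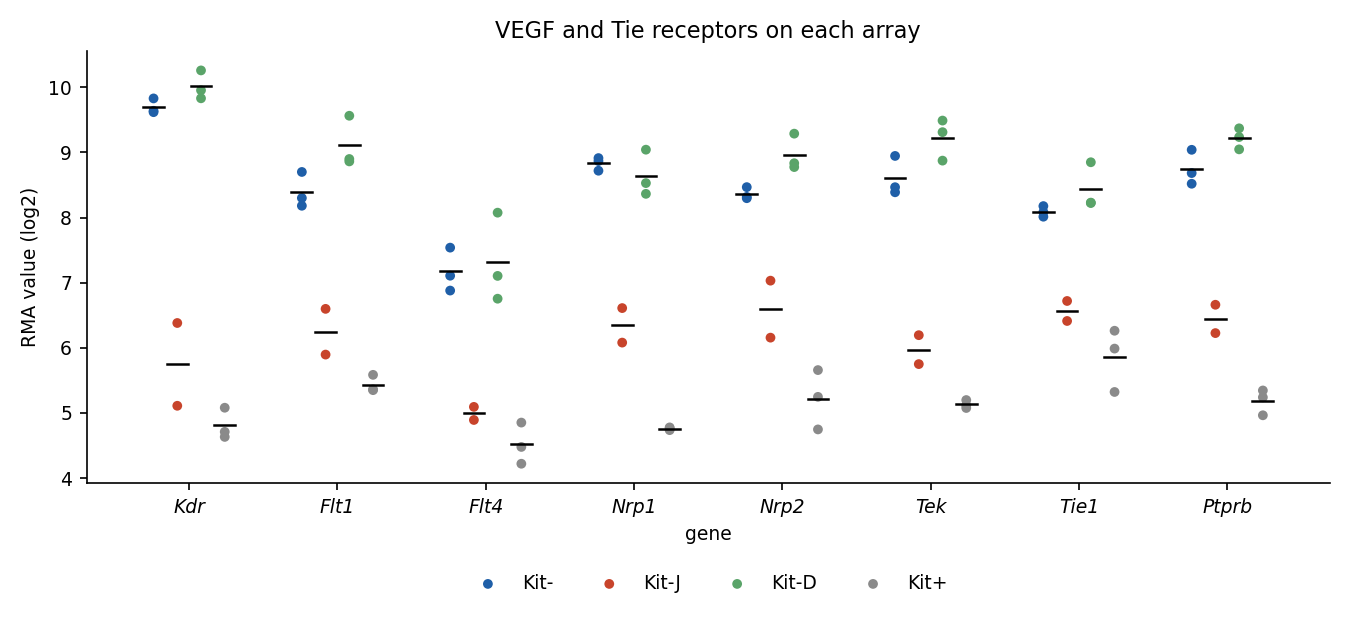
Log2 RMA values of 8 VEGF and Tie receptor genes on each array (points) with group means (bars) in fresh Kit- (3 arrays), Kit-J (2), Kit-D (3) and fresh Kit+ (3). For each gene both Kit-J points lie below all Kit- and Kit-D points, and Kdr on Kit-J replicate 1 (5.110) lies close to the fresh Kit+ mean (4.807).

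In the list of receptors for small peptides and lipids, which also holds the ligands Apela, Apln and Adm, 3 of 9 members fell (median -1.38). Aplnr, the apelin receptor of veins and sprouting vessels, measured 6.072 and 7.043 on Kit-J against 10.298, 10.476 and 10.525 on Kit- (-3.88, standard error 0.47, adjusted p = 0.000489). Ramp2, which makes the adrenomedullin receptor together with Calcrl, measured 7.167 and 7.015 against 9.450, 9.747 and 9.131 (-2.35, adjusted p = 0.0179). Gpr182 measured 4.400 and 4.121 against 4.875, 5.659 and 6.221 (-1.32, adjusted p = 0.0335). Aplnr kept its call whichever array was left out. Ramp2 and Gpr182 lost theirs on removal of Kit-J replicate 1 (adjusted p = 0.135 and 0.148), of Kit-J replicate 2 (0.0583 and 0.106) or of Kit- replicate 2, Ramp2 also on removal of Kit- replicate 1 and Gpr182 of Kit- replicate 3.

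Genes of cell junctions fell in 8 of 18 cases (median -1.37). Cdh2, or N-cadherin, measured 5.467 and 5.053 on Kit-J against 7.519, 7.553 and 7.928 on Kit- (-2.41, standard error 0.26, adjusted p = 0.000188), a 5.3-fold lower signal. Cdh5, the VE-cadherin of endothelial adherens junctions, measured 8.153 and 8.294 against 10.999, 11.103 and 11.037 (-2.82, standard error 0.62, adjusted p = 0.0258). The groups of Cdh5 were widely separated, yet its call was lost on leaving out any 1 of the 5 arrays (adjusted p up to 0.204). The gap junction genes Gja5 (connexin 40, of arteries) and Gja1 (connexin 43) changed by -2.95 and -2.09, with adjusted p = 0.000563 and 0.00065. Gja5 measured 6.588 and 6.535 against 9.470, 9.789 and 9.276. Cdh11 changed by -2.28 (adjusted p = 0.000952). Cdh2, Cdh11, Gja1 and Gja5 were called whichever array was left out.

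Surface proteins of endothelium fell in 9 of 20 cases (median -1.14). Emcn, a sialomucin of veins and capillaries, measured 5.768 and 7.237 on Kit-J against 10.067, 10.189 and 10.434 on Kit- (-3.73, standard error 0.71, adjusted p = 0.0105). Its Kit-J arrays differed by over 1 on the log2 scale, and the call was lost without Kit-J replicate 1 (adjusted p = 0.197). Clec14a, a lectin-like protein of angiogenic vessels, measured 4.278 and 4.285 against 6.950, 7.046 and 7.159 (-2.77, standard error 0.26, adjusted p = 7.34e-05). Cd93 changed by -2.24 (adjusted p = 0.000653), Ecscr by -1.91 (adjusted p = 0.00739), and Eng, a co-receptor for TGF-beta, by -1.48 (adjusted p = 0.00515). Clec14a and Cd93 were called whichever array was left out, while Ecscr and Eng were not called without Kit-J replicate 1 (adjusted p = 0.148 and 0.112).

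Of 28 endothelial transcription factors, 12 fell and none rose (median -1.29). Nr2f2 (COUP-TFII), which promotes venous identity, measured 5.769 and 6.123 on Kit-J against 8.122, 7.818 and 8.014 on Kit- (-2.04, standard error 0.22, adjusted p = 0.000167). Ets1, of the ETS family, measured 5.840 and 6.294 against 7.975, 8.116 and 8.138 (-2.01, adjusted p = 0.0018). Meis2, a homeobox factor, measured 5.087 and 6.483 against 8.182, 8.152 and 8.371 (-2.45, adjusted p = 0.00459). Tcf4, Elk3, Zeb1 and Hoxd8 changed by -1.31, -1.30, -1.31 and -1.50 (adjusted p = 0.00456, 0.00594, 0.0298 and 0.0314). Nr2f2 and Tcf4 were called whichever array was left out, whereas Ets1, Meis2, Elk3, Zeb1 and Hoxd8 depended on Kit-J replicate 1 (adjusted p between 0.0532 and 0.419 when it was removed), Zeb1 also on each Kit- array and Hoxd8 on Kit-J replicate 2.

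In the Notch list, of 26 receptors, ligands and effectors, 1 fell and none rose (median -0.02), a share of 3.85% beside 1.89% of all genes. Both Kit-J arrays lay below all Kit- arrays for 8 of the 26, or 30.8%, beside 12.8% of all genes. That 1 was Hey2, a repressor that Notch induces in arteries, at 3.686 and 3.607 on Kit-J against 5.577, 5.909 and 5.013 on Kit- (-1.85, standard error 0.24, adjusted p = 0.000653), and its call held whichever array was left out. Nrarp, another gene that Notch induces, measured 5.387 and 5.495 against 6.638, 6.482 and 6.219 (-1.01, adjusted p = 0.137). Dll4 measured 5.070 and 5.531 against 5.889, 6.139 and 5.948 (-0.69, adjusted p = 0.246). Both lay below every Kit- array without passing the test. Jag1, the ligand that the stroma overexpressed, overlapped between the groups, at 6.235 and 5.029 against 6.221, 7.073 and 6.260 (adjusted p = 0.326). Of the 26 members, 13 had a negative difference. Efnb2 and Ccnd1, which the study names as Notch targets and which stand in other lists, were called lower. Gata2, which the study proposes is activated by the Jag1 signal, was not called (0.37, adjusted p = 0.682). Efnb2, an ephrin of arteries named here after its values were seen, measured 6.887 and 7.119 against 9.017, 9.189 and 8.648 (-1.95, adjusted p = 0.00175), and was called whichever array was left out.

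Among Wnt receptors and effectors 5 of 30 fell (median -0.16). Fzd4, the receptor of Norrin and Wnt ligands on vessels, measured 4.700 and 4.412 on Kit-J against 6.957, 6.855 and 6.724 on Kit- (-2.29, standard error 0.20, adjusted p = 4.44e-05), and its membrane partner Tspan12 measured 4.971 and 5.754 against 7.273, 7.562 and 8.040 (-2.26, adjusted p = 0.00175). Tcf7l2, which carries the Wnt signal in the nucleus, measured 7.244 and 6.899 against 9.116, 8.915 and 8.738 (-1.85, adjusted p = 0.000581). Rspo3, a secreted enhancer of Wnt signals, changed by -1.23 (adjusted p = 0.0291). Fzd4 and Tcf7l2 were called whichever array was left out. Tspan12 and Rspo3 were not called once Kit-J replicate 1 was removed (adjusted p = 0.0553 and 0.0821), nor Rspo3 without Kit-J replicate 2 or Kit- replicates 2 or 3. In the BMP and TGF-beta pathway 5 of 28 fell (median -0.48), among them the ligands Bmp4 (-1.47, adjusted p = 0.022) and Bmp2 (-1.08, adjusted p = 0.0189), the receptor Acvrl1 (-0.96, adjusted p = 0.0378) and the mediator Smad5 (-1.08, adjusted p = 0.00493). None of the 4 held its call once Kit-J replicate 1 was removed (adjusted p between 0.0673 and 0.357). Bmp4 lost it on removal of any of the 5 arrays, Bmp2 also without Kit-J replicate 2 or Kit- replicates 1 or 2, and Acvrl1 without Kit- replicates 1 or 2.

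**Figure D3:**
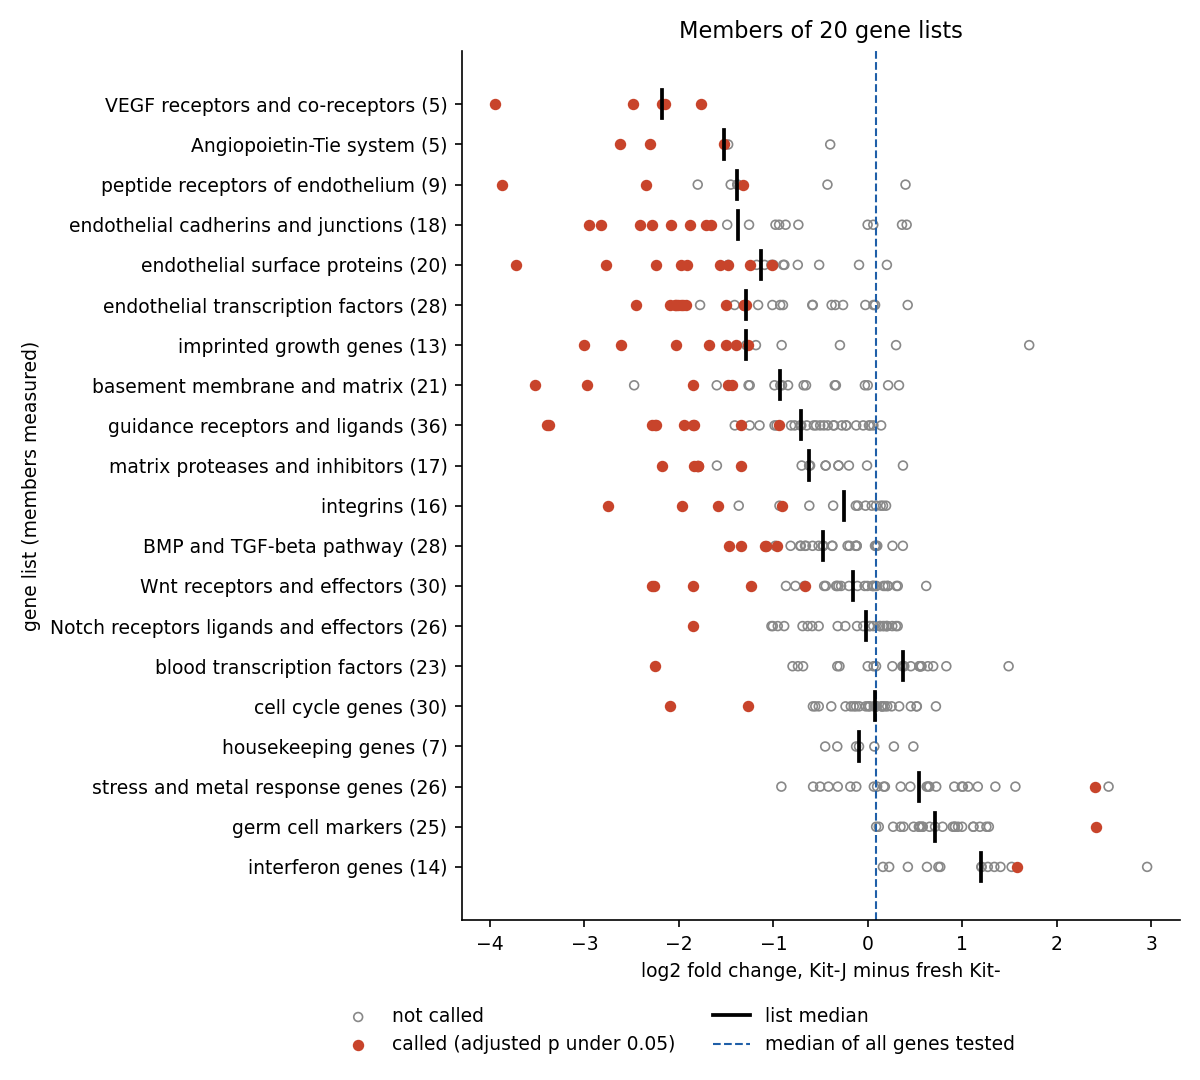
Log2 fold change of Kit-J over fresh Kit- for the measured members of 20 gene lists; filled red points were called, open points were not, black bars are list medians, and the dashed line is the median of all genes tested (0.085). The 6 endothelial lists at the top have medians between -2.18 and -1.14, housekeeping genes lie around -0.09, and interferon genes have a median of 1.2 with 1 of 14 called.

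In the basement membrane list 5 of 21 fell (median -0.93). Lama4, a laminin chain of vessels, measured 6.076 and 5.667 on Kit-J against 8.704, 9.002 and 8.842 on Kit- (-2.98, standard error 0.44, adjusted p = 0.00204). Sparcl1 measured 5.976 and 7.712 against 10.321, 10.559 and 10.223 (-3.52, adjusted p = 0.0111). Nid1, which links laminin to collagen, changed by -1.85 (adjusted p = 0.00604) and Col4a1 by -1.48 (adjusted p = 0.016). Lama4 was called whichever array was left out, whereas Sparcl1, Nid1 and Col4a1 lost their calls with Kit-J replicate 1 removed (adjusted p = 0.216, 0.0653 and 0.138), and Col4a1 also without Kit- replicates 1 or 2.

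Matrix proteases and their inhibitors fell in 6 of 17 cases (median -0.62), and the protease that activates another moved with its target: Mmp14 changed by -1.84 (adjusted p = 0.00806) and Mmp2, which it cleaves into active form, by -2.18 (adjusted p = 0.000713). Mmp2 measured 6.327 and 6.056 on Kit-J against 8.289, 8.376 and 8.447 on Kit-. Reck, an inhibitor of both, changed by -1.799 (adjusted p = 0.00142) and Adamts1 by -1.35 (adjusted p = 0.0049). These 4 were called whichever array was left out. Among integrins, the receptors for matrix, 4 of 16 fell (median -0.25). Itga2, of the collagen receptor, measured 4.931 and 5.582 against 8.055, 7.908 and 8.059 (-2.75, standard error 0.27, adjusted p = 8.2e-05). Itgb1, the common partner chain, measured 9.159 and 9.303 against 10.144, 10.124 and 10.148 (-0.91, adjusted p = 0.012), and was not called without Kit-J replicate 1 (adjusted p = 0.148).

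Of 36 guidance receptors and ligands, which steer vessels as they steer axons, 10 fell (median -0.71). Flrt2 measured 4.996 and 6.721 on Kit-J against 9.155, 9.441 and 9.150 on Kit-. Sema6d measured 5.545 and 6.530 against 9.498, 9.687 and 9.057. Plxnd1, the endothelial receptor for semaphorins, measured 7.939 and 7.575 against 9.420, 9.619 and 9.786 (-1.85, adjusted p = 0.000648). Sema6a measured 6.076 and 6.084 against 8.440, 8.427 and 8.125 (-2.25, adjusted p = 0.000426). All 4 were called whichever array was left out. In the list of actin and contractility 6 of 31 fell (median -0.72), led by Cnn2 (-2.52, adjusted p = 0.000348) and Myh10, a non-muscle myosin (-2.17, adjusted p = 0.00142). In the list of caveolae 2 of 8 fell (median -0.89). Cav1, the coat protein of caveolae, measured 6.343 and 6.803 against 8.085, 9.079 and 9.001 and did not pass (-2.15, adjusted p = 0.0877), while Cav2 did (-1.58, adjusted p = 0.0124), though not with Kit-J replicate 1 removed (0.131) or with Kit- replicate 2 removed.

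In the list of imprinted genes that govern embryonic growth 7 of 13 members fell (median -1.29). The 13 include Nckap1, which is not an imprinted growth gene and entered through a synonym in place of H19. H19 itself was not measured. Mest measured 7.852 and 8.233 on Kit-J against 10.997, 11.152 and 10.992 on Kit- (-3.004, standard error 0.48, adjusted p = 0.00355). Ndn, which encodes necdin, measured 3.779 and 4.488 against 6.237, 7.048 and 6.970 (-2.62, adjusted p = 0.00284). Peg10 measured 9.706 and 9.983 against 11.157, 11.322 and 11.260 (-1.40, adjusted p = 0.00272), and Cdkn1c, an inhibitor of the cell cycle, 7.474 and 7.352 against 8.556, 8.360 and 9.118 (-1.27, adjusted p = 0.00739). The groups did not overlap for these 4 genes, but removal of Kit-J replicate 1 took away each call (adjusted p between 0.0624 and 0.0686), and 0 of the 13 members were called in that fit. In the cell cycle list 2 of 30 fell (6.67%, beside 1.89% of all genes, median 0.07), Cdkn1c and Ccnd1. Ccnd1, the cyclin that drives entry into S phase, measured 6.227 and 7.266 against 8.753, 8.679 and 9.103 (-2.10, adjusted p = 0.0018), a call that Kit-J replicate 1 carried (0.0553 when removed).

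Other large falls lay outside these families. Tmem255a, a membrane protein of little-known role, measured 6.197 and 7.770 on Kit-J against 10.982, 10.958 and 10.855 on Kit- (-3.95, standard error 0.59, adjusted p = 0.00204), and was not called with Kit-J replicate 1 removed (0.0646). Klhl4, a kelch-like protein, measured 5.535 and 5.768 against 8.989, 8.900 and 8.776 (-3.24, standard error 0.27, adjusted p = 3.72e-05). Fabp7, a fatty acid binding protein, measured 4.427 and 4.454 against 7.101, 8.261 and 6.966 (-3.002, standard error 0.42, adjusted p = 0.00123). Klhl4 and Fabp7 were among the genes called whichever array was left out.

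Of 23 blood transcription factors, 0 rose and 1 fell (median 0.37), beside 0.251% of all genes that rose and 1.89% that fell, and 9 of the 23 lay above all Kit- arrays on both Kit-J arrays, beside 19.7% of all genes. A count of 0 among so few genes is near that background. Runx1, required for the passage from endothelium to blood, measured 7.822 and 8.782 on Kit-J against 7.825, 7.743 and 7.702 on Kit- (0.55, adjusted p = 0.705). Gata2 measured 6.993 and 6.967 against 6.740, 6.593 and 6.491 (0.37, adjusted p = 0.682). Myb measured 7.227 and 8.857 against 6.339, 7.027 and 6.295 (1.49, adjusted p = 0.208). Gata2 and Myb lay above every Kit- array on both Kit-J arrays, but none of these differences exceeded the spread that the model allows. The gene that fell was Mecom (Evi1), a factor of blood stem cells that aortic endothelium also makes, at 6.176 and 5.423 against 7.983, 8.536 and 7.653 (-2.26, adjusted p = 0.00395). Of 23 surface proteins and cytokine receptors of blood, 0 rose and 1 fell (median 0.03). Kitl, the ligand of Kit, measured 3.764 and 3.693 against 6.022, 6.156 and 6.429 (-2.47, standard error 0.36, adjusted p = 0.00175). Mecom and Kitl were called whichever array was left out, but Mecom missed the threshold when its probe sets were averaged (adjusted p = 0.0541). Itga2b (CD41), the earliest surface sign of blood commitment, overlapped at 6.376 and 6.196 against 5.984, 6.308 and 6.483.

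The rises were fewer. Penk, which encodes the precursor of enkephalins, measured 8.779 and 9.292 on Kit-J against 5.673, 5.517 and 6.085 on Kit- (3.28, standard error 0.78, adjusted p = 0.0405), a 9.69-fold higher signal. Its mean was also high in Kit+J (8.749) and low in fresh Kit+ (5.943) and Kit-D (5.541). On the Kit+D arrays Penk varied widely, at 8.600, 7.385 and 4.830 (mean 6.938). Penk lost its call on removal of any of the 5 arrays (adjusted p up to 0.192). Klhl32 measured 8.125 and 6.070 against 4.512, 4.624 and 3.151 (3.001, adjusted p = 0.0373). It lost its call in 8 other fits, among them averaged probe sets, where the difference was 1.45, and removal of any array but Kit-J replicate 2. Mettl18, a histidine methyltransferase, measured 7.606 and 6.811 against 5.107, 5.606 and 5.157 (1.92, standard error 0.28, adjusted p = 0.0018). H3c15, a histone gene with near-identical copies that shared probes could mix, changed by 2.08 (adjusted p = 0.0373). Rpp25, Gng3 and Scgb2a2 changed by 1.803, 1.47 and 1.35 (adjusted p = 0.0477, 0.0368 and 0.0243). With Kit-J replicate 1 removed, none of the 12 largest rises passed (adjusted p between 0.0571 and 0.488), and with Kit-J replicate 2 removed 7 did not. Of the 12 largest falls, 5 lost their calls on removal of Kit-J replicate 1 and 0 on removal of Kit-J replicate 2.

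Genes that respond to interferon lay higher as a group, with 1 of 14 called (beside 0.251% of all genes) and a median of 1.2 beside 0.085 for all genes. Both Kit-J arrays lay above all 3 Kit- arrays for 11 of the 14, beside 19.7% of all genes. As a mean over members, with fresh Kit- at zero, the list stood at 1.2 and 1 on Kit-J replicates 1 and 2. It ran from -0.09 to 0.78 on the Kit-D arrays and from 0.24 to 0.48 on the Kit+J arrays. Usp18, which removes ISG15 from proteins, measured 6.680 and 6.223 on Kit-J against 4.877, 4.842 and 4.916 on Kit- (1.57, standard error 0.37, adjusted p = 0.0397). It was called without Kit-J replicate 2 (0.0474) but not on removal of any other of the 5 arrays. Ifit3 measured 6.537 and 7.314 against 4.011, 4.077 and 3.824 and did not pass (2.96, standard error 1.06, adjusted p = 0.22). On the Kit-D arrays Ifit3 measured 6.406, 3.418 and 4.097. Stat2, part of the interferon transcription complex, measured 7.094 and 7.397 against 6.209, 6.066 and 5.653 (1.27, adjusted p = 0.0646). Outside the list, Ddx58, the sensor RIG-I, measured 7.885 and 8.162 against 6.684, 6.029 and 6.787 (1.52, adjusted p = 0.039), and Rnf213, a large ubiquitin ligase that interferon induces, 7.566 and 6.927 against 5.781, 5.662 and 5.779 (1.51, adjusted p = 0.00701). When all probe sets of a gene were averaged, Rnf213 no longer passed (adjusted p = 0.215). The call of Ddx58 was lost on removal of any of the 5 arrays (adjusted p up to 0.174). Ddx58 and Rnf213 had means of 7.2 and 6.571 in fresh Kit+ cells, between those of Kit- and Kit-J.

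Of 26 stress and metal response genes 1 rose (median 0.54), beside 0.251% of all genes. Mt2, a metallothionein that binds zinc and copper, measured 9.291 and 9.285 on Kit-J against 6.986, 5.906 and 7.773 on Kit- (2.40, standard error 0.51, adjusted p = 0.0222). The fresh arrays spread over nearly 2 on the log2 scale while the Kit-J arrays were close together, and fresh Kit+ cells were also high (8.754). The call was lost with the compared groups alone, with array weights and on removal of either Kit-J array or of Kit- replicates 1 or 2 (adjusted p up to 0.169). Slc7a11, the cystine transporter, measured 7.413 and 7.002 against 4.410, 5.574 and 3.996 (2.55, adjusted p = 0.0676). Gclc, of the enzyme that starts glutathione synthesis, measured 8.819 and 8.520 against 7.817, 7.027 and 7.118 (1.35, adjusted p = 0.0572). Both lay above every Kit- array and missed the threshold. Of 28 early response genes 0 rose and 2 fell (median -0.06): Jun measured 8.422 and 8.468 against 9.572, 9.405 and 9.668 (-1.10, adjusted p = 0.00469), with 0.0653 once Kit-J replicate 1 was removed, and Fosb changed by -1.67 (adjusted p = 0.0434), a call lost on removal of any of the 5 arrays.

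**Figure D4:**
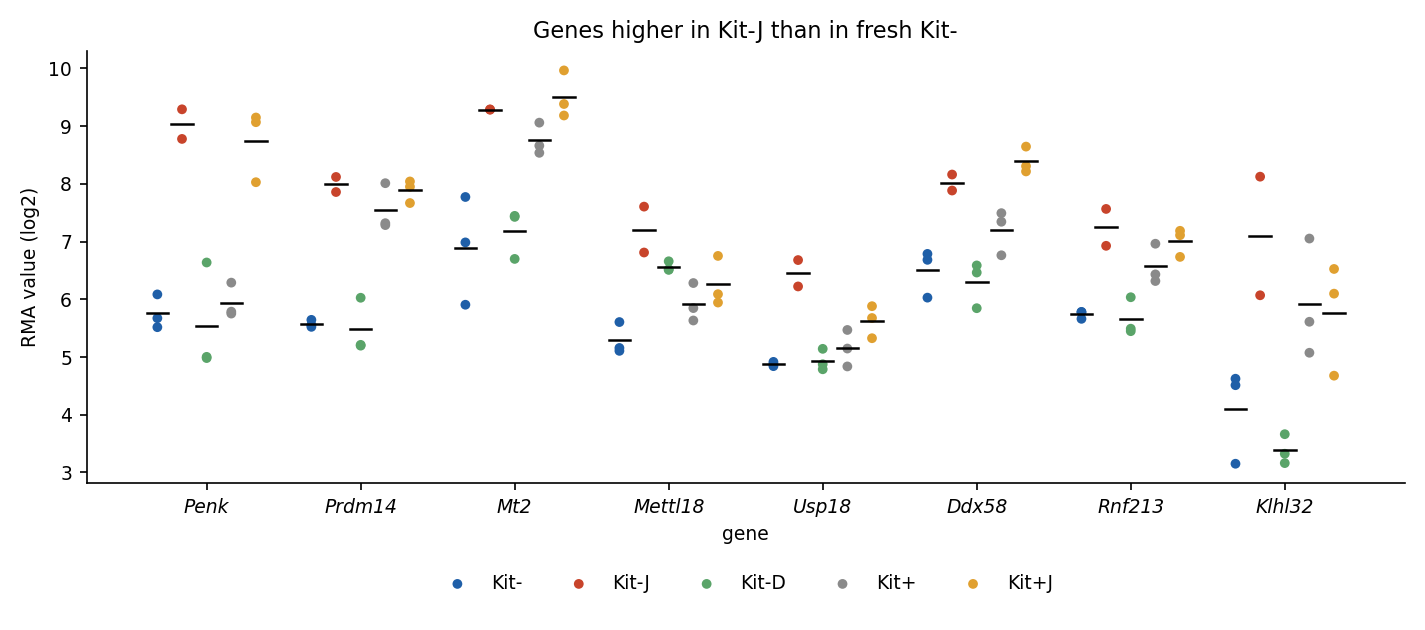
Log2 RMA values of 8 genes called higher in Kit-J, on each array (points) with group means (bars) in fresh Kit-, Kit-J, Kit-D, fresh Kit+ and Kit+J. Both Kit-J points of Penk (8.779 and 9.292) lie near the Kit+J mean of 8.749, and the 2 Klhl32 points (8.125 and 6.070) lie far apart.

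Markers of other cells moved with some of these genes, and their part in the results was not tested. Of 25 germ cell markers 1 rose (median 0.71), beside 0.251% of all genes. Both Kit-J arrays lay above all Kit- arrays for 18, beside 19.7% of all genes. Taken as the mean over members, with the average of fresh Kit- at zero, the list stood at 0.88 and 0.7 on Kit-J, at 0.97 to 1.23 on the fresh Kit+ arrays and -1.53 to -0.64 on the Kit-D arrays. The riser, Prdm14, a regulator of primordial germ cells, measured 8.120 and 7.859 against 5.556, 5.644 and 5.523 (2.42, adjusted p = 0.038). Its call was lost on removal of any of the 5 arrays (adjusted p up to 0.286). Ifitm3, which interferon also induces, measured 11.031 and 11.095 in Kit-J, and in fresh Kit- it measured 10.406, 10.173 and 10.478. Of 10 erythroid markers 2 fell (20%, beside 1.89% of all genes, median 0.07), the embryonic globins Hba-x and Hbb-y. Hba-x measured 5.844 and 6.905 against 8.885, 9.430 and 10.200 (-3.13, adjusted p = 0.0112), and was not called with Kit-J replicate 1 removed (0.193). The erythroid list averaged -0.91 and -0.68 on the Kit-J arrays and -0.33 to 0.23 on the Kit- arrays.

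Of 25 stromal and mesenchymal markers 1 fell (4%, beside 1.89% of all genes) and none rose (median -0.28). The list averaged -0.65 and -0.45 on the Kit-J arrays. None of the 25 lay above all Kit- arrays on both, beside 19.7% of all genes. Pdgfra, a receptor of mesenchymal cells, measured 5.120 and 4.771 on Kit-J against 7.005, 6.612 and 7.669 on Kit- (-2.15, adjusted p = 0.0102), or 0.0709 with Kit-J replicate 1 removed. Among 20 macrophage and myeloid and 8 megakaryocyte markers none were called (medians -0.40 and -0.22), and the myeloid mean was -0.51 and -0.53 on Kit-J against -0.45 to 0.71 on the Kit- arrays. None of 14 epithelial and mesothelial markers were called (median 0.24, with 7 above all Kit- arrays, beside 19.7% of all genes). Of 9 neural crest and nerve markers 1 fell, Stmn2 (-1.32, adjusted p = 0.0369; median of the list 0.00), and this call was lost on removal of any of the 5 arrays (adjusted p up to 0.312). Hypoxia and glycolysis genes fell in 2 of 21 cases (9.52%, beside 1.89% of all genes, median -0.32). These were Egln1, the oxygen sensor PHD2 (-1.29, adjusted p = 0.00204), and Pfkl (-1.13, adjusted p = 0.0128). Pfkl was not called with either Kit-J array or Kit- replicate 3 removed. No gene was called among 18 inflammatory, 16 cholesterol, 27 ribosome biogenesis and 7 housekeeping genes (medians 0.09, 0.24, 0.26 and -0.09). The housekeeping genes averaged -0.27 and 0.23 on Kit-J replicates 1 and 2, against -0.11 to 0.12 on the Kit- arrays.

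The stroma was compared within the cultured arrays, where the fresh arrays enter only through the shared estimate of the spread. Between the stromas 1869 genes (9.37%) were called, of which 658 (3.3%) had the higher signal on OP9-Jag1 and 1211 (6.07%) the lower. This comparison shares the Kit-J arrays with the one above. Kdr averaged 10.015 on the Kit-D arrays, which put Kit-J lower by 4.27 (adjusted p = 1.65e-05), and Nrp1 averaged 8.645 (-2.30, adjusted p = 2.19e-05). Cdh2 averaged 7.325 (-2.07, adjusted p = 0.000238), Tek 9.225 (-3.25, adjusted p = 1.75e-06) and Fzd4 7.705 (-3.15, adjusted p = 1.75e-06). Kitl averaged 7.774 in Kit-D and was lower by 4.05 in Kit-J (adjusted p = 1.65e-05). Hey2 averaged 4.719 in Kit-D, and the Kit-J arrays lay below it by 1.07 (adjusted p = 0.0131). Some blood genes that did not pass against fresh cells passed here, in both directions. Myb, Csf2rb (a chain of the IL3 receptor) and Kit exceeded their Kit-D means by 2.29, 3.79 and 1.195 (adjusted p = 0.0153, 0.0274 and 0.0202). Hoxb4, Il6st and Lmo2 lay below theirs (-1.446, -1.554 and -1.236, adjusted p = 0.003, 0.031 and 0.0482). Part of each gap lay in Kit-D. Against fresh Kit-, Myb, Csf2rb and Kit differed by -0.800, -1.233 and -0.616 in Kit-D and by 1.489, 2.557 and 0.579 in Kit-J. Hoxb4, Il6st and Lmo2 differed by 0.707, 0.429 and 0.438 in Kit-D and by -0.740, -1.126 and -0.798 in Kit-J. None of these differences from fresh cells was called, and Kit is also the sort marker. Between the stromas Runx1, Gata2 and Itga2b did not pass (adjusted p = 0.254, 0.932 and 0.829). Penk, Prdm14 and Usp18 were higher than in Kit-D by 3.49, 2.51 and 1.52 (adjusted p = 0.0133, 0.0142 and 0.0214). For Mettl18 the difference from Kit-D was 0.65 and did not pass (adjusted p = 0.153), since Kit-D averaged 6.563. Under housekeeping scaling 226 were higher and 906 lower. Removal of Kit-J replicate 1 left 504 genes, while 2728 were called without Kit-J replicate 2, and removal of Kit-D replicates 2 or 3 left 1005 or 836, the latter being the array with the conflicting description.

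Fresh Kit+ cells and Kit-D cells, each set against the same 3 fresh Kit- arrays, give the scale of these changes. Kdr differed from Kit- by -4.89 in fresh Kit+ cells (adjusted p = 9.16e-07) and by 0.32 in Kit-D (adjusted p = 0.795), beside -3.95 in Kit-J. Nrp1 differed by -4.07 in Kit+ (adjusted p = 3.67e-08) and by -0.19 in Kit-D (adjusted p = 0.784), beside -2.49 in Kit-J. Cdh2 differed by -2.69 in Kit+ (adjusted p = 7.56e-06) and by -0.34 in Kit-D (adjusted p = 0.642), beside -2.41 in Kit-J. Over all genes 644 (3.23%) were called between Kit+ and Kit- and 34 (0.171%) between Kit-D and Kit-. These comparisons share their control arrays with Kit-J against Kit-.

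The effect of OP9-Jag1 was then set against that in Kit+ cells from the same cultures, as the difference between both differences from fresh cells. It was called in 116 genes (0.582%), 111 (0.557%) with a lower and 5 (0.0251%) with a higher change in Kit- cells. Kdr changed by -3.95 in Kit- cells and by 0.14 in Kit+ cells, where it was already low before culture (4.807 fresh, 4.950 after), and the difference was -4.09 (standard error 0.51, adjusted p = 0.00213). Nrp1 changed by -2.49 and 0.42 (difference -2.91, adjusted p = 0.000437), and Cdh2 by -2.41 and 0.10 (difference -2.51, adjusted p = 0.00432). Within Kit+ cells, 4 genes (0.0201%) differed between OP9-Jag1 and fresh, all 4 of them lower and 0 higher (0%). The count of 116 came to 38 when Kit-J replicate 1 was removed, and to 297 when Kit-J replicate 2 was. It was also below 116 by more than 1.5 times without Kit- replicate 1, 2 or 3 (66, 53 and 50), Kit+ replicate 1, 2 or 3 (57, 61 and 73) or Kit+J replicate 3 (67).

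**Figure D5:**
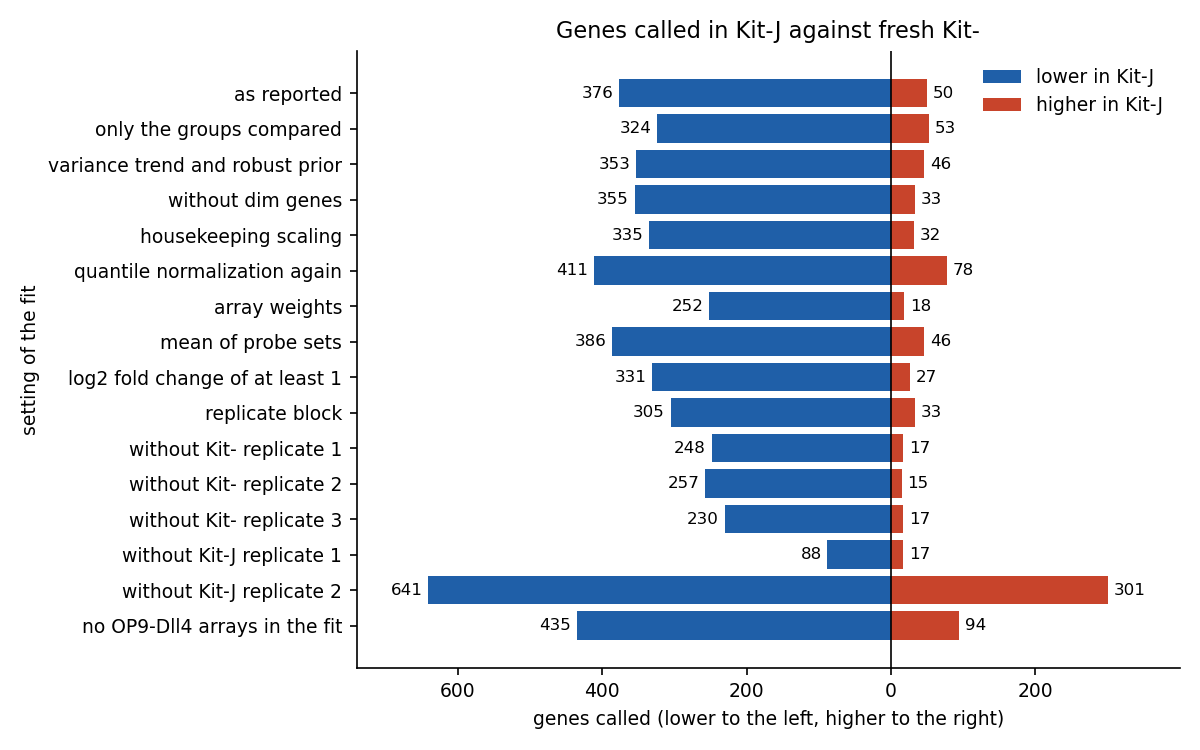
Number of genes called between Kit-J and fresh Kit- in each fit, with genes lower in Kit-J to the left (blue) and higher to the right (red). Each bar with 1 array left out is labelled by that array; the fit without Kit-J replicate 1 has the fewest calls (88 lower, 17 higher) and the fit without Kit-J replicate 2 the most (641 lower, 301 higher).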

How the data were processed

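Total RNA of 17 pools of AGM cells was amplified and hybridised to arrays of Affymetrix, the Mouse Gene 1.0 ST design. The authors deposited log2 values summarised by RMA, a method that removes background, brings arrays to 1 distribution and merges probes into sets; its version is not given in the sources used here. Values ran from 1.237 to 13.58, and array medians from 5.218 to 5.383. The number of arrays limits the precision. Raw intensities were not used.

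The platform annotation named 1 gene for 21640 of the 34760 probe sets, several genes for 1321 and no gene for 11799. The brightest probe set was taken for the 954 genes with more than 1, and 19937 genes were tested. All 17 arrays entered 1 linear model with a mean per group, fitted with limma 3.58.1 (R 4.3.3), with 11 residual degrees of freedom, moderated variances and Benjamini-Hochberg adjustment. The spread is shared, which lends Kit-J, with its 2 arrays, the variance of the rest. The methods name no test for the arrays. Replicates were independent sorts according to the study. No pair among the 5 arrays shared more than 1.1% of equal values. The fit was tested on simulated data.

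Members and gene lists were chosen with earlier results of these data known. Genes were named if they were Kdr, Nrp1 or Cdh2, among the 12 largest falls or 12 largest rises of called genes whose arrays did not overlap (without provisional symbols and small RNAs), shown by the study for this comparison, among the 4 members of each list with the smallest p, or Jag1, Kit or a housekeeping gene. Pecam1 and Ptprc are sort markers, and Flt4 was added after its values were seen. The alternatives tried were the compared groups alone, another variance prior, removal of dim genes, housekeeping scaling, quantile normalization, array weights, averaged probe sets, a minimum log2 difference of 1, the replicate number as a block and removal of each array; a fit without OP9-Dll4 arrays was added after the data had been seen. Promoters and genome coordinates are from RefSeq for GRCm38.p6. Figures were drawn with matplotlib 3.10.9 in Python 3.11.15.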

Additional observations from a re-analysis of the deposited data

Results flagged for a closer look

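For 36 of the 160 named genes the change on OP9-Jag1 differed between Kit- and Kit+ cells, beside 0.582% of all genes. The difference itself was tested (limma, adjusted p from 0.000437 to 0.0448). The naming used the same Kit-J and Kit- arrays that enter this difference, so the count is no independent evidence. Values are given as the log2 change in Kit- cells minus that in Kit+ cells. Among VEGF and Tie receptors and their phosphatase the differences were those of Flt1, Nrp1, Kdr, Tek and Ptprb (-2.60, -2.91, -4.09, -2.07, -2.45). For the junction genes they were those of Cdh2, Cdh11, Gja1 and Gja5 (-2.51, -2.11, -2.06, -2.62). Among guidance genes the differences were those of Flrt2, Sema6a, Sema6d and Plxnd1 (-3.50, -3.62, -3.32, -2.28). For the receptors and surface proteins they were those of Aplnr, Clec14a, Fzd4, Itga2 and Itga9 (-3.74, -2.92, -2.72, -2.69, -2.06). Among matrix genes and proteases the differences were those of Lama4, Nid1, Mmp2, Mmp14, Adamts1 and Adamts9 (-3.10, -2.33, -2.21, -2.27, -1.46, -1.92). For the regulators in the nucleus they were those of Hey2, Nr2f2, Ets1 and Meis2 (-1.98, -1.86, -1.90, -2.88). Among growth genes and cell cycle genes the differences were those of Mest, Peg10, Cdkn1c and Ccnd1 (-3.17, -2.37, -1.50, -2.02). For the remaining genes they were those of Klhl4, Fabp7, Cnn2 and Kitl (-2.77, -2.73, -2.83, -2.50). All 36 had been named for the change in Kit- cells, 0 of them were called in Kit+ cells alone, and their changes there ran from -0.56 to 1.37 (the highest that of Sema6a). Many were already low in fresh Kit+ cells, which averaged 4.807 for Kdr and 4.760 for Nrp1 against 9.696 and 8.833 in fresh Kit- cells. With 2 or 3 arrays a group, single arrays could not be tested as outliers.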

How the results depend on the processing

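Beside the 426 genes called between Kit-J and fresh Kit-, array weights gave 270, and leaving out 1 array gave 105 to 942, with the extremes set by Kit-J replicates 1 and 2. The other alternatives gave 338 to 529. Beside the 1869 genes between Kit-J and Kit-D, the groups compared alone gave 1151, housekeeping scaling 1132, array weights 1180 and a log2 fold change of at least 1 gave 1056, and leaving out 1 array gave 504 to 2728. Beside the 116 genes that changed differently in Kit- and Kit+ cells, the groups compared alone, which is also the fit without OP9-Dll4 arrays, gave 175, and leaving out 1 array gave 38 to 297. Replicate numbers are shared between the groups, but the fresh arrays were made in another experiment and same-numbered Kit- and Kit-J arrays did not deviate together (correlations -0.0253 and -0.057), so the numbers were not taken as pairs. With the replicate block the counts were 338, 1390 and 98, and Penk (adjusted p = 0.0837), Usp18 (0.068), Gng3, Hoxd8 and Zeb1 were among the calls lost. Over the named genes and all alternatives, 2096 values kept direction and call, 216 lost the call, 52 gained one and 9 turned, all in genes that were not called. Itga2b turned with the replicate block (-0.131), without Kit- replicate 1 (-0.110) and without Kit-J replicate 1 (-0.062), with 0.14 as its highest value. On removal of single arrays Actb ran from -0.203 to 0.015, Ywhaz from -0.428 to 0.177, Tfrc from -0.078 to 1.263, Gp5 from -0.612 to 0.092, Hprt from -0.090 to 0.639 and Ppia from -0.015 to 0.151. The cause was not tested. Kit-J replicate 1 had the narrowest spread of values (SD 1.983 against 2.02 to 2.177), and both Kit-J arrays had an array weight of 0.5647. With 1 Kit-J array left, that array takes its variance from the rest. Low signals near the bottom of the range give no bound on how far a gene fell.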
